A study of Mus musculus with 7 samples.

Results

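The nuclear-encoded oxidative phosphorylation genes are the genes of the cell nucleus whose proteins build the proton-pumping complexes of the mitochondrial respiratory chain and the ATP synthase. They were taken by symbol from the deposited count table as every row starting with Ndufa, Ndufb, Ndufc, Ndufs, Ndufv, Uqcr, Cox4 to Cox8 or Atp5, which gave 93 of 26130 genes. The 3 rows named as pseudogenes (-ps) and the genes of the mitochondrial genome were left out. By symbol, 40 rows are named as complex I subunits, 8 are complex I assembly factors (the Ndufaf genes), 8 belong to complex III, 20 to complex IV and 17 to the ATP synthase. Ndufa4 and Ndufa4l2 were counted with complex IV, where the NDUFA4 protein is now placed despite its name. GENCODE lists 3 of the 40 complex I rows (Ndufa11b, Ndufb4c and Ndufs6b) as processed pseudogenes, and the rule keeps them because their symbols lack -ps. None of these 3 was called in any comparison by edgeR.

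The lung cells were taken from mice with a red reporter of ferritin heavy chain (Fth1-mScarlet) and a green one of the lysozyme gene Lyz2 (Lyz2GFP). Cells positive for Lyz2GFP, CD11b and Ly6C and negative for Ly6G were sorted, and their polyadenylated RNA was sequenced in 7 libraries. Untreated mice gave 2 libraries of cells low in Fth1-mScarlet (untreated Fth1-low). Mice given 20 µg of E. coli lipopolysaccharide in 50 µl into the trachea gave, 3 days later, 2 libraries of Fth1-low cells (LPS Fth1-low) and 3 of Fth1-high cells (LPS Fth1-high). The sources used here do not give strain background, age or sex, nor whether a library is 1 mouse or a pool. The p-values therefore reflect only how much these libraries vary, which may be technical. No untreated Fth1-high library was analysed, so treatment and gate cannot be told apart where LPS Fth1-high is set against untreated cells. The 3 comparisons share their groups and are not independent of each other.

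Complex I takes electrons from NADH, complex III passes them from ubiquinol to cytochrome c, and complex IV hands them to oxygen. The proton gradient that these complexes build drives the ATP synthase. Macrophages activated by LPS are known to shift from oxidative phosphorylation towards glycolysis, and complex IV has alternative nuclear subunits that are used in different tissues or under hypoxia and inflammation.

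The deepest library, LPS Fth1-high replicate 3, held 27997007 counts, and the shallowest, LPS Fth1-low replicate 1, held 637787. In the latter, ribosomal RNA made up 17.8% of the total, and 22 of the 87 members tested by edgeR were below 10 counts. In that shallow library 3 counts equal 5.02 CPM (counts scaled to the library's total times its TMM factor), against 0.106 to 0.280 CPM in the others. All 8 markers of the sorted cells were detected, with a summed level between 12826 and 19042 CPM, and Ly6g was at or below 0.0932 CPM. Of these 8, edgeR called 5 different in LPS Fth1-high against untreated cells, where 12.4% of all genes were called higher and 11.9% lower. It called 1 between the LPS groups and 0 in LPS Fth1-low against untreated cells. Fth1 itself was higher in LPS Fth1-high than in LPS Fth1-low cells (log2 difference 2.23, edgeR adjusted p = 0.00470). Untreated replicate 1 held 681 CPM of 5 lung epithelium markers against 3.17 CPM in replicate 2. In bulk RNA, fewer cells of a type and less RNA per cell cannot be told apart.

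Few respiratory genes were called between the groups, and the largest changes were falls in LPS Fth1-high cells. In LPS Fth1-high against LPS Fth1-low cells, edgeR's quasi-likelihood test with Benjamini-Hochberg adjustment called 3 of the 87 members tested lower (3.45%), all by more than 2.5-fold: Ndufa4, Cox6b2 and Ndufaf7. Among all 13665 genes tested, 4.57% were called lower. No member was called higher, against 3.68% of all genes, and 1 member was higher at an unadjusted p below 0.05, while DESeq2 and limma-voom also called 0. The members' median log2 difference was 0.00, beside 0.04 over all genes tested. The groups did not overlap for 7 members that were higher (8.05%, against 24.2% of all genes) and 8 that were lower (9.20%, against 17.1%).

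In LPS Fth1-low against untreated Fth1-low cells, 0 members were called in either direction, where 2.99% of all genes were called higher and 0.629% lower. At an unadjusted p below 0.05, 7 members were higher and 0 lower, and DESeq2 and limma-voom called 0. The members' median was 0.24, beside -0.05 over all genes, and 62 of 87 lay above 0. Without untreated replicate 2 that median was 0.09, and without untreated replicate 1 it was 0.44. The groups did not overlap for 26 members that were higher (29.9%, against 16.3% of all genes) and 3 that were lower (3.45%, against 23.2%).

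In LPS Fth1-high against untreated Fth1-low cells, 6 members were called higher (6.90%, where 12.4% of all genes were) and 4 lower (4.6%, where 11.9% were). The higher ones were Ndufc1, Ndufb6, Ndufs3, Ndufv3, Atp5g1 and Atp5g3. The lower ones were Ndufa4, Cox6b2, Ndufaf7 and Ndufb11. The median was 0.33, beside 0.02 over all genes, and 67 of 87 members lay above 0. Without untreated replicate 2 it was 0.16, and without untreated replicate 1 it was 0.57. The groups did not overlap for 24 members that were higher (27.6%, against 30.3% of all genes) and 8 that were lower (9.20%, against 27.8%).

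**Figure D1:**
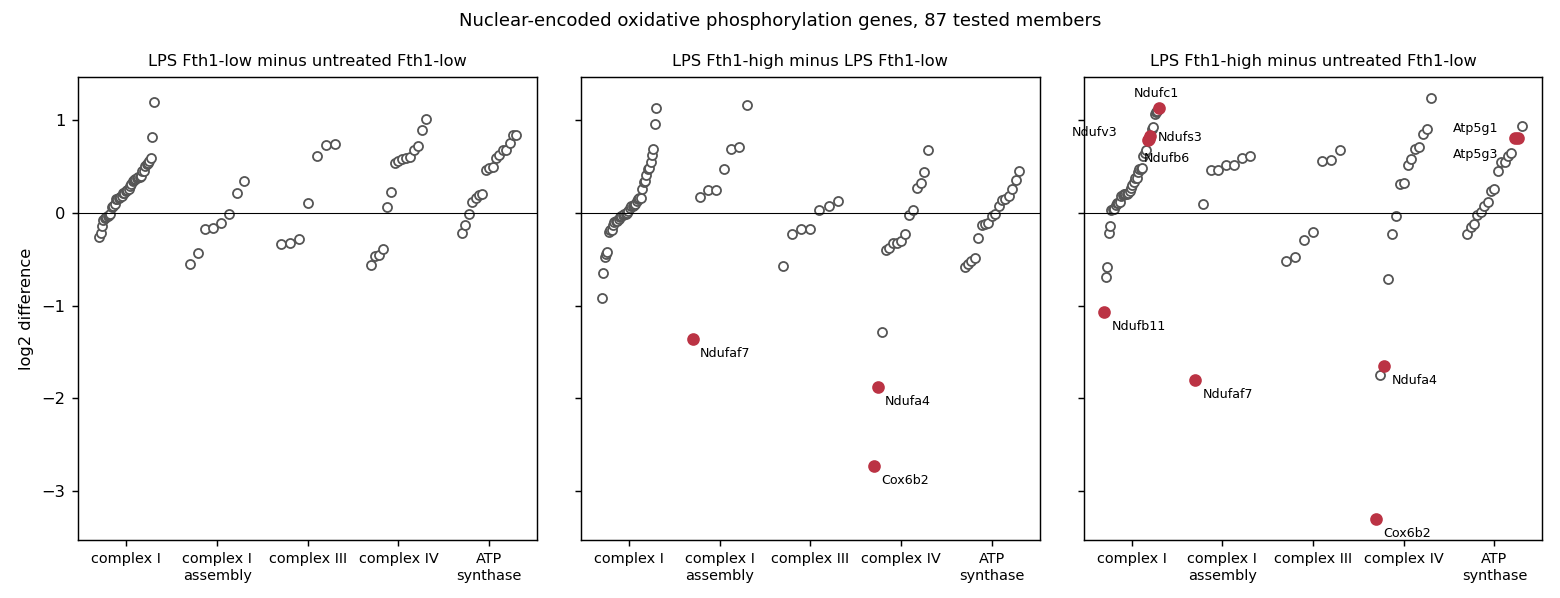
Log2 difference of each of the 87 tested members (points, sorted within each complex) in the 3 comparisons, filled and named where the edgeR adjusted p was below 0.05. The filled points below 0 reach -3.30 (Cox6b2), while no filled point passes 1.13 (Ndufc1) above 0, and none is filled in LPS Fth1-low against untreated cells.

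Complex IV held the largest called changes. Ndufa4, a small subunit that binds to the outside of complex IV, was at 69.2 and 54.9 CPM in the untreated libraries and at 95.4 and 58.0 CPM in LPS Fth1-low cells. In LPS Fth1-high cells it was at 15.5, 21.05 and 22.7 CPM. All 3 LPS Fth1-high libraries lay below every Fth1-low library, and the Fth1-low groups overlapped. Ndufa4 was 3.68-fold lower in LPS Fth1-high than in LPS Fth1-low cells (log2 difference -1.88 ± 0.27 SE, edgeR adjusted p = 0.00301) and 3.14-fold lower than in untreated cells (-1.65 ± 0.25 SE, adjusted p = 0.00122). Both calls were kept in all 17 alternatives. LPS Fth1-low and untreated cells were not called different (0.23 ± 0.29 SE, adjusted p = 0.830). Ndufa4 made up 5.15% and 5.63% of the summed complex IV CPM in untreated cells, 5.58% and 4.39% in LPS Fth1-low cells and 1.52% to 1.66% in LPS Fth1-high cells, so it fell relative to the other complex IV transcripts and not with them.

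AA467197 (also Nmes1) is no member by the rule and was chosen after its values were seen. It encodes a small protein of the NDUFA4 family that is known to be induced in inflammation and to take the place of NDUFA4 in complex IV, and its transcript also carries the microRNA gene Mir147. It was nearly absent in untreated cells, with 6 and 1 counts (0.250 and 0.0932 CPM). LPS Fth1-low cells held 246 and 205 CPM and LPS Fth1-high cells 321, 525 and 445 CPM. These levels put it above Ndufa4 in every LPS library and below it in both untreated libraries. The pooled counts gave a ratio to untreated cells of 1025 (95% interval 497 to 2551) for LPS Fth1-low and 2216 (1075 to 5511) for LPS Fth1-high cells, intervals that cover counting error only. Both rises were called by edgeR (log2 difference 10.09 ± 0.47 SE, adjusted p = 1.13e-05, and 11.04 ± 0.47 SE, adjusted p = 3.38e-06). Between the LPS groups it was 1.92-fold higher in Fth1-high cells, with no overlap between the groups (0.94 ± 0.26 SE), which missed the threshold (adjusted p = 0.0613) and passed it without a filter on low counts, with DESeq2, with limma-voom with or without sample quality weights, and without LPS Fth1-high replicate 1.

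The ratio of AA467197 to Ndufa4, in counts per transcript length, was 0.00278 and 0.00131 in untreated cells. It was 1.99 and 2.73 in LPS Fth1-low cells and 16.0, 19.2 and 15.1 in LPS Fth1-high cells. The 3 groups did not overlap. The first step, between the Fth1-low groups, came with a rise of AA467197 with overlapping levels of Ndufa4. The second came with lower Ndufa4 and higher AA467197 in every LPS Fth1-high library than in the LPS Fth1-low ones. The ratio is a description, with no test of its own. Sums of markers of other cell types also differed between the groups. Of dendritic cells, all 5 of that list were detected, and their sum was 89.4 to 99.1 CPM in untreated, 38.5 to 50.3 CPM in LPS Fth1-low and 1.18 to 4.21 CPM in LPS Fth1-high libraries. Among them, Flt3 was at 33.9 and 38.1, 13.4 and 38.9, and 0.796, 0.488 and 0.813 CPM. The 5 T and NK cell markers summed to 8.2 to 19.8, 9.87 to 18.4 and 1.63 to 5.51 CPM in the same order of groups, and the 6 alveolar macrophage markers to 59.9 to 89.2, 16.7 to 29.0 and 10.9 to 32.9 CPM. Against untreated cells, edgeR called 1 T and NK cell marker and 3 alveolar macrophage markers in LPS Fth1-high cells, of which Marco was higher and Fabp4, Pparg and Klrb1c were lower. It also called 2 dendritic cell markers there. Between the LPS groups it called 2 dendritic cell markers and 0 of the other 2 lists, where 3.68% of all genes were called higher and 4.57% lower. In LPS Fth1-low against untreated cells it called 1 dendritic cell and 1 alveolar macrophage marker. No marker of these 3 lists was at 0 in every library. Their part in the fall of Ndufa4 was not tested, nor in the falls of Cox6b2, Ndufaf7 and Ndufb11.

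**Figure D2:**
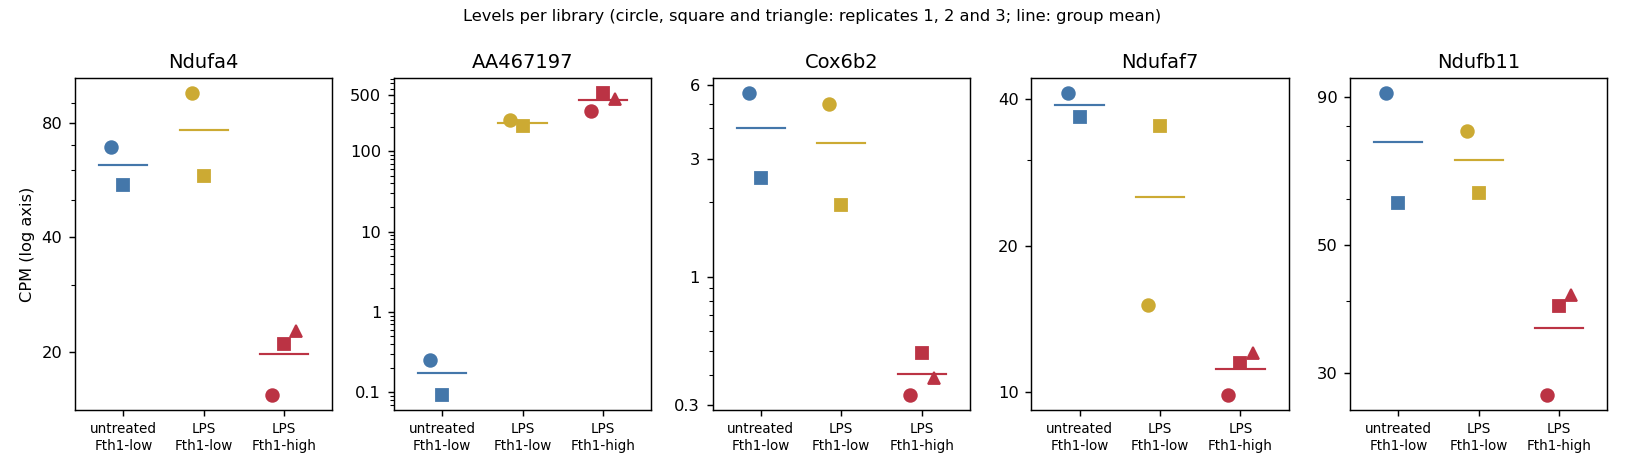
CPM per library (log axis) of the 4 members called lower in LPS Fth1-high than in untreated cells and of AA467197, by group, with replicates 1, 2 and 3 as circle, square and triangle and the group mean as a line. Ndufa4 sits at 15.5 to 22.7 CPM in LPS Fth1-high cells, below all Fth1-low libraries, while AA467197 goes from at most 0.250 CPM in untreated cells to 205 CPM or more after LPS.

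The promoters of this pair are shown because the genes moved in opposite directions within complex IV. The windows run from 250 bases before to 50 bases after the RefSeq start, 5′ to 3′ (RefSeq promoter table, GRCm38.p6), and 5 motifs were searched on both strands. These were the NRF1 core GCATGCGC, the ETS core CCGGAAG bound by GABPA, the YY1 core AAGATGG, the hypoxia response core ACGTGC and the NF-kB-like pattern GGGNNTTCC. The last does not cover all NF-kB sites. Capitals mark a match, which is the NF-kB-like pattern in the Ndufa4 window and the hypoxia response core in the AA467197 window.
Ndufa4, chr6:11907401-11907700, minus strand: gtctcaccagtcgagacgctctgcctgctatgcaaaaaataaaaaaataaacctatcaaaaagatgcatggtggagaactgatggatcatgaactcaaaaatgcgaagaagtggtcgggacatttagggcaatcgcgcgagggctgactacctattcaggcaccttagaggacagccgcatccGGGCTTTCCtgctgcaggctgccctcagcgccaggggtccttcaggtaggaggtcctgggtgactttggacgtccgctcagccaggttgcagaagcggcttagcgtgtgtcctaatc
AA467197, chr2:122637637-122637936, plus strand: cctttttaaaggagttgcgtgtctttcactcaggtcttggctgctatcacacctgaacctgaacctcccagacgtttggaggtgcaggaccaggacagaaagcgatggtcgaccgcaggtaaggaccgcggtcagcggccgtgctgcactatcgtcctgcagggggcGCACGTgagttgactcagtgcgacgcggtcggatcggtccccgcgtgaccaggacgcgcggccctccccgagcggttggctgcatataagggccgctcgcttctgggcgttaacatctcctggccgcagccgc
The Ndufa4 match lies 67 bases and the AA467197 match 83 bases before the start. Such matches were common, with the NF-kB-like pattern in 7.12% and the hypoxia core in 7.93% of the 13178 windows of all genes tested. A match in letters is not evidence of binding.

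Cox6b2, the testis-type isoform of the complex IV subunit VIb, was a minor transcript beside its ubiquitous partner Cox6b1. It was at 5.54 and 2.52 CPM in untreated cells, 5.02 and 1.95 CPM in LPS Fth1-low cells and 0.332 to 0.488 CPM in LPS Fth1-high cells, which rest on 5 to 12 counts there and on 3 counts in the shallow LPS Fth1-low replicate 1. All 3 LPS Fth1-high libraries were below the 4 others. It was 9.84-fold lower than in untreated cells (log2 difference -3.30 ± 0.61 SE, edgeR adjusted p = 0.00377) and 6.65-fold lower than in LPS Fth1-low cells (-2.73 ± 0.70 SE, adjusted p = 0.0429). The latter call was lost when any of the 7 libraries was left out (adjusted p 0.0561 to 0.135), with limma-voom, and with only the groups compared. Without untreated replicate 1 the former was -2.61 (adjusted p = 0.0709). Cox6b1 was at 122 and 85.2 CPM in untreated, 258 and 139 CPM in LPS Fth1-low and 107, 164 and 173 CPM in LPS Fth1-high libraries and was not called in any comparison.

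The other isoform sets of complex IV were used unequally. Per kilobase of transcript, Cox4i1, the common form of the subunit that binds ATP, had the highest level of the complex (400 CPM per kb over 7 libraries), and Cox4i2, its form in lung and hypoxic tissue, the lowest (0.563 CPM per kb). Counts of Cox4i2 were 36 and 0 in untreated, 0 and 13 in LPS Fth1-low and 4, 1 and 11 in LPS Fth1-high libraries, and Ndufa4l2, the hypoxia-induced relative of Ndufa4, had 25, 0, 0, 5, 0, 0 and 4 counts in the same order. The surfactant gene Sftpc, an alveolar epithelial marker, was at 494 CPM in untreated replicate 1 and 1.40 CPM in replicate 2, the libraries with the most and the fewest Cox4i2 counts of that group. Its part in these counts was not tested. Of the muscle-type isoforms, Cox7a1 had 0 to 48 counts and Cox6a2 0 to 43, while the muscle-type Cox8b and the testis-type Cox8c and Cox7b2 were listed at 0 in all 7 libraries.

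Cox8a, Cox7b, Cox5a, Cox6a1 and Cox6b1, ubiquitous complex IV subunits, lay higher in LPS Fth1-low than in untreated cells without passing the test. Cox7b was at 59.9 and 44.2 CPM in untreated libraries, 147 and 74.1 CPM in LPS Fth1-low and 64.3, 94.2 and 93.6 CPM in LPS Fth1-high libraries. All 5 LPS libraries were above both untreated ones. Its log2 difference was 1.01 ± 0.35 SE in LPS Fth1-low against untreated cells (adjusted p = 0.217). With libraries thinned to equal depth it was the 1 member called there (1.70, adjusted p = 0.0133). Over the 15 complex IV genes tested the median was 0.56 in that comparison, which was 0.20 without LPS Fth1-low replicate 1, and -0.30 in LPS Fth1-high against LPS Fth1-low cells. Cox7a2l, which helps to join complexes III and IV into supercomplexes, was at 213 ± 68.5 CPM (SD, n = 2) in untreated and 130 ± 33.1 (n = 3) in LPS Fth1-high cells (-0.71 ± 0.30 SE, adjusted p = 0.114). Its partners Cox7a2 and Cox7a1 pointed the other way (0.91 and 1.24) and were not called by edgeR. Cox7a2 passed with no filter on low counts (adjusted p = 0.0420), with limma-voom and sample quality weights (0.0277) and without LPS Fth1-high replicate 1 (0.0125). For the same comparison edgeR called 0 complex IV genes higher, with 4 at an unadjusted p below 0.05, while DESeq2 and limma-voom each called 2, Cox8a among them (adjusted p = 0.0422 and 0.0403, and 0.0716 by edgeR).

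Complex I had 40 rows tested, the 3 pseudogenes among them, with 4 called higher and 1 lower in LPS Fth1-high against untreated cells, where 12.4% of all genes were called higher and 11.9% lower. In LPS Fth1-low against untreated cells edgeR, DESeq2 and limma-voom called 0, with 0 in either direction at an unadjusted p below 0.05 by edgeR. Between the LPS groups edgeR called 0, with 0 higher and 2 lower at an unadjusted p below 0.05, while DESeq2 called 1 lower and limma-voom 0. The fall was in Ndufb11, an X-linked accessory subunit of the membrane arm (chrX:20615326-20617619, mm10). It was at 91.2 and 59.1 CPM in untreated, 78.7 and 61.4 CPM in LPS Fth1-low and 27.5, 39.2 and 41.0 CPM in LPS Fth1-high libraries. As with Ndufa4, all LPS Fth1-high libraries lay below all Fth1-low ones. The difference was -1.07 ± 0.25 SE against untreated cells (2.09-fold lower, adjusted p = 0.0131) and -0.92 ± 0.27 SE against LPS Fth1-low cells (adjusted p = 0.0718), which passed without a filter on low counts, with DESeq2, with a replicate block and thinned to equal depth. Without untreated replicate 1 the former was -0.72 (adjusted p = 0.152). Exons of Ndufb11 overlap Rbm10 on the opposite strand, and no source used here gives the strand that was counted, so their reads cannot be told apart for certain.

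The 4 complex I genes that rose are accessory or core subunits of different modules. Ndufc1, of the membrane arm, was at 14.8 and 10.2 CPM in untreated, 15.1 and 18.9 CPM in LPS Fth1-low and 19.8, 29.3 and 33.1 CPM in LPS Fth1-high libraries, and the 3 groups did not overlap. It was 2.19-fold higher in LPS Fth1-high than in untreated cells (log2 difference 1.13 ± 0.28 SE, adjusted p = 0.0159). Ndufb6, also of the membrane arm, was at 23.4 and 19.6, 30.1 and 27.4, and 31.1, 40.6 and 40.8 CPM in the same order, again with no overlap (0.80 ± 0.20 SE, adjusted p = 0.0183). The values of 15.1 CPM for Ndufc1 and 30.1 CPM for Ndufb6 are from the shallow library, where 1 count equals 1.67 CPM. Ndufs3, a core subunit of the arm in the matrix, was at 24.5 and 18.7, 18.4 and 31.8, and 30.7, 42.6 and 42.4 CPM, so its LPS Fth1-low libraries reached from below both untreated ones into the LPS Fth1-high range (0.83 ± 0.25 SE, adjusted p = 0.0393). Ndufv3, an accessory subunit beside the NADH-binding site, had means of 31.0 ± 7.98 (SD, n = 2), 45.1 ± 12.02 (n = 2) and 53.6 ± 9.57 CPM (n = 3) and passed narrowly (0.78 ± 0.25 SE, adjusted p = 0.0496). Exons of Ndufb6 overlap Smim27 and those of Ndufs3 overlap Kbtbd4 on the opposite strand, and Ndufs3 and Atp5g1 each have 1 near-identical copy in the genome, so their counts are uncertain.

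These 4 rises and the 2 of the ATP synthase rest on few libraries. The count of 6 fell to 0 without untreated replicate 2 or without LPS Fth1-high replicate 3, and to 1 without untreated replicate 1 or LPS Fth1-high replicate 2. It went up to 13 without LPS Fth1-high replicate 1, to 9 without either LPS Fth1-low library and to 20 with limma-voom and sample quality weights. In LPS Fth1-high replicate 1 the members summed to 4834 CPM, against 6737 and 6713 CPM in replicates 2 and 3, and untreated replicate 2 was the lowest library with 4680 CPM. Thinned to equal depth, 3 were called. Ndufc1 was kept in 15 of 17 alternatives, Ndufb6 and Ndufs3 in 11, Atp5g3 in 11, Ndufv3 in 9 and Atp5g1 in 7.

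The remaining complex I genes showed smaller differences. Ndufb8, a membrane arm subunit and the most abundant of the complex per length, was at 77.4 ± 17.3 (SD, n = 2), 103 ± 1.72 (n = 2) and 100.3 ± 17.3 CPM (n = 3) and was not called. The NADH-binding Ndufv1 and the core iron-sulfur subunit Ndufs1 differed by at most 0.16 between any groups. Ndufs8, another core subunit with iron-sulfur clusters, was at 70.1 and 48.2, 63.6 and 61.7, and 29.5, 50.4 and 38.9 CPM and reached -0.65 ± 0.27 SE against LPS Fth1-low cells (adjusted p = 0.195). Ndufa6, an accessory subunit of the matrix arm, was lowest after Ndufb11, at 56.4 and 39.99, 40.2 and 40.3, and 19.8, 37.3 and 32.4 CPM (-0.69 ± 0.27 SE against untreated cells, adjusted p = 0.0954). The highest uncalled estimates were in genes with a near-identical copy and few counts. Ndufab1, the mitochondrial acyl carrier protein, had 1.19 in LPS Fth1-low against untreated cells, from 11 counts in the shallow library. Ndufb4, of the membrane arm, had 1.13 between the LPS groups, from 2 counts there. In LPS Fth1-high against untreated cells Ndufab1 had 1.10 (5.51, 8.82 and 8.94 against 3.79 and 3.45 CPM). It passed there in 4 of 16 alternatives: with limma-voom and sample quality weights (adjusted p = 0.0372), with only the groups compared (0.0376) and without LPS Fth1-low replicate 1 (0.0398) or 2 (0.0349).

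Among the 8 complex I assembly factors, which help to build the complex and are not part of it, 1 fell. Ndufaf7, a methyltransferase of the mitochondrial matrix that acts during assembly, was at 41.0 and 36.7 CPM in untreated cells, 15.1 and 35.2 CPM in LPS Fth1-low cells and 9.89, 11.5 and 12.02 CPM in LPS Fth1-high cells. The LPS Fth1-high libraries were the lowest 3, and the LPS Fth1-low value of 15.1 CPM rests on 9 counts. It was 3.49-fold lower than in untreated cells (log2 difference -1.80 ± 0.26 SE, edgeR adjusted p = 8.87e-04) and 2.58-fold lower than in LPS Fth1-low cells (-1.36 ± 0.28 SE, adjusted p = 0.0155). Without LPS Fth1-low replicate 2 the latter was -0.42 (adjusted p = 0.647), and with libraries thinned to equal depth -0.74 (adjusted p = 0.306). The call against untreated cells was kept in all 17 alternatives. The other 7 assembly factors lay above 0 in both comparisons of LPS Fth1-high cells, between 0.09 and 1.16, and none was called. Ndufaf2, an assembly chaperone of the late steps, was the highest, at 3.08 and 3.36, 1.67 and 2.31, and 3.38, 5.28 and 6.04 CPM (1.16 ± 0.50 SE against LPS Fth1-low cells, adjusted p = 0.212). Its LPS Fth1-low value of 1.67 CPM is 1 count. Ndufaf3 was at 12.04 and 8.86, 6.70 and 11.7, and 10.8, 15.0 and 17.6 CPM, and Ndufaf6, the highest of the list in LPS Fth1-low against untreated cells, reached 0.34 ± 0.56 SE there.

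The promoter of Ndufaf7 is shown beside those of Ndufs3, a gene that rose, and Ndufa11, a membrane arm subunit with small differences (0.00 between the LPS groups and 0.10 in both comparisons with untreated cells, on the log2 scale). Capitals mark the ETS core in Ndufs3 and the NRF1 core on both strands in Ndufa11. The Ndufaf7 window has none of the 5 motifs, which says only that these letters are not in it.
Ndufaf7, chr17:78936885-78937184, plus strand: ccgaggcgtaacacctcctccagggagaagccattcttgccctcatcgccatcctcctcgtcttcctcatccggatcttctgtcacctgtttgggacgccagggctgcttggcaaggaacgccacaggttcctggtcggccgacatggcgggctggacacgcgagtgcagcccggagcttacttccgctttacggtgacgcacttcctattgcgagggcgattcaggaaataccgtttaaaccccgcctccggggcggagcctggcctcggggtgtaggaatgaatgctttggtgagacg
Ndufs3, chr2:90904672-90904971, minus strand: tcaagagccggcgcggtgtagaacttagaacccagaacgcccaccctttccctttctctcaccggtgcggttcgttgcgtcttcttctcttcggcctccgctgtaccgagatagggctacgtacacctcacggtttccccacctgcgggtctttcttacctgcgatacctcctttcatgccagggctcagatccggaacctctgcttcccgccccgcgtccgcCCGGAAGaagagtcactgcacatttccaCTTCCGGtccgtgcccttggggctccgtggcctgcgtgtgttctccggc
Ndufa11, chr17:56717512-56717811, plus strand: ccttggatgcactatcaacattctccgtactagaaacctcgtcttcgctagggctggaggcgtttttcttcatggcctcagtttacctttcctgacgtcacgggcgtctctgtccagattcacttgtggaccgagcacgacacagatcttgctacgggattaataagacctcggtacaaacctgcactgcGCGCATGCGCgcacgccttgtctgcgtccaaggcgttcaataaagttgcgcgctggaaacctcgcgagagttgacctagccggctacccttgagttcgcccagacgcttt
NRF1, GABPA and YY1 are transcription factors known to drive many respiratory genes. Of the 93 members, 74 had a promoter in the table, with 79 windows. The NRF1 core was in 13.9% of these windows and in 4.91% of the 13178 windows of all genes tested. The YY1 core was in 15.2% against 6.91%, and the ETS core in 21.5% against 16.9%. The NF-kB-like pattern (3.8% against 7.12%) and the hypoxia core (5.06% against 7.93%) were less common in the members' windows. The NRF1 core and its reverse overlap in GCGCATGCGC, and a window with both was counted once. These shares are a description of the sequences, with no test.

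Complex III had 7 of 8 genes tested, and edgeR called 0 in all 3 comparisons. At an unadjusted p below 0.05, 1 gene was higher in each comparison with untreated cells (Uqcr10 in LPS Fth1-low and Uqcrb in LPS Fth1-high), 0 were lower and DESeq2 and limma-voom called 0. In LPS Fth1-high against untreated cells Uqcr10, Uqcrb and Uqcrq, small subunits without a redox centre, lay above 0. The core protein genes Uqcrc1 and Uqcrc2, the Rieske protein gene and the hinge protein gene Uqcrh lay below 0. Uqcrb, which binds ubiquinone, was at 25.9 and 21.5 CPM in untreated, 48.5 and 30.2 CPM in LPS Fth1-low and 26.4, 43.3 and 44.8 CPM in LPS Fth1-high libraries. The Rieske iron-sulfur protein Uqcrfs1 was at 150 and 119, 77.0 and 136, and 72.7, 110 and 99.4 CPM, with all LPS Fth1-high libraries below both untreated ones (-0.52 ± 0.27 SE, adjusted p = 0.202, not called). Uqcrh was at 164 and 109, 164 and 133, and 62.2, 114 and 119.5 CPM, the lowest of the complex between the LPS groups (-0.58 ± 0.31 SE, adjusted p = 0.335). Uqcr11, a further small subunit, is listed at 0 in every library, and nothing is read from that value.

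The ATP synthase had 17 genes tested. In LPS Fth1-high against untreated cells edgeR called 2 higher and 0 lower, where 12.4% and 11.9% of all genes were. It called 0 in the other comparisons, where 2 were higher at an unadjusted p below 0.05 in LPS Fth1-low against untreated cells, 0 between the LPS groups, and DESeq2 and limma-voom called 0. Both called genes encode subunit c, which forms the rotating ring, and 3 genes make the same mature protein. Atp5g3 was at 115 and 90.3 CPM in untreated, 172 and 146 CPM in LPS Fth1-low and 139, 205 and 195 CPM in LPS Fth1-high libraries. All 5 LPS libraries lay above both untreated ones. It was 1.75-fold higher in LPS Fth1-high than in untreated cells (log2 difference 0.81 ± 0.23 SE, adjusted p = 0.0325), and Atp5g1 1.76-fold (0.81 ± 0.24 SE, adjusted p = 0.0380) at lower levels of 7.36 to 18.4 CPM. Atp5g2 was at 6.90 ± 1.72 (SD, n = 2), 14.9 ± 9.72 (n = 2) and 8.24 ± 4.11 CPM (n = 3) and was not called. The catalytic subunit beta, Atp5b, was the most abundant per length (318 CPM per kb) and reached 0.61 ± 0.25 SE against untreated cells (adjusted p = 0.113). It passed with DESeq2 (0.0458), with limma-voom and sample quality weights (0.0337), with only the groups compared (0.0420) and without LPS Fth1-low replicate 1 (0.0429) or 2 (0.0465). Its levels were 532 and 438 CPM in untreated and 646, 811 and 767 CPM in LPS Fth1-high libraries. Its partner alpha, Atp5a1, differed by 0.01 there. The membrane subunits e and g were the extremes of the complex: Atp5k had 0.94 ± 0.39 SE (adjusted p = 0.119), at 26.4 and 17.0 CPM in untreated and 24.5, 49.4 and 51.3 CPM in LPS Fth1-high libraries, and Atp5l had -0.23 ± 0.34 SE (adjusted p = 0.669).

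**Figure D3:**
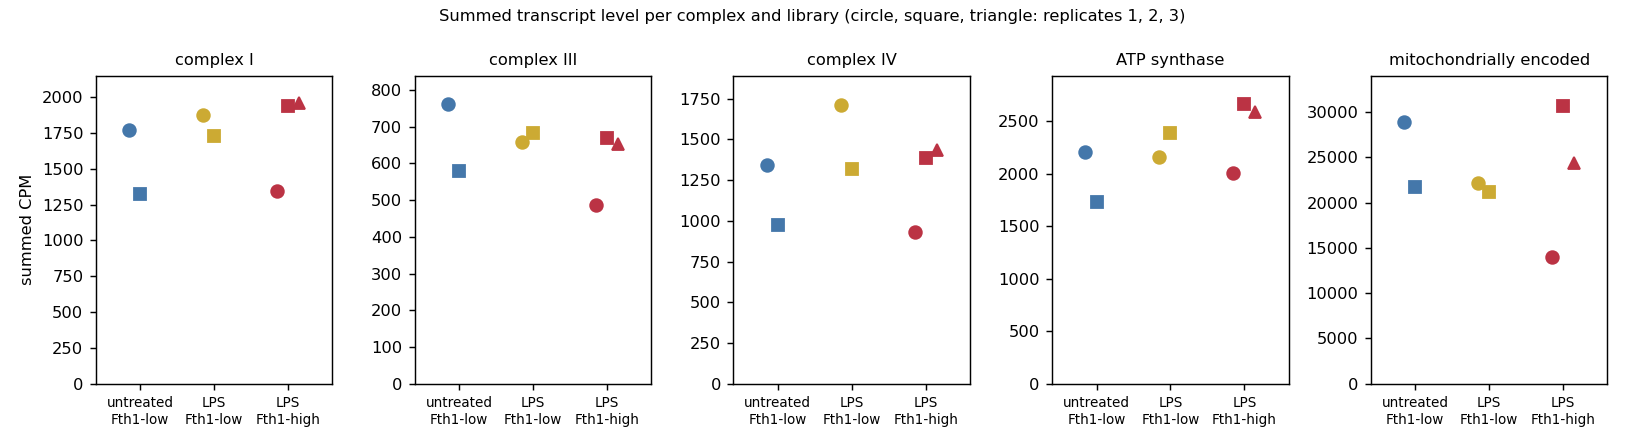
Summed CPM per library of the complex I, complex III, complex IV and ATP synthase members and of the 13 mitochondrially encoded subunits, by group, with replicates 1, 2 and 3 as circle, square and triangle. The groups overlap in every panel, and the lowest complex I sums are those of untreated replicate 2 (1321 CPM) and LPS Fth1-high replicate 1 (1344 CPM).

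The sums per complex did not separate the groups. Over all 93 members, the summed CPM of both LPS Fth1-low libraries (6445 and 6207) lay above both untreated ones (6179 and 4680). The LPS Fth1-high libraries (4834, 6737 and 6713 CPM) overlapped both groups, and these sums have no test. As percent of counts, without the TMM factor, all 3 groups overlapped. All 93 members together made up 0.480% and 0.645% of counts in untreated, 0.604% and 0.635% in LPS Fth1-low and 0.477% to 0.678% in LPS Fth1-high libraries. The 13 subunits encoded in the mitochondrial genome took 2.22% and 3.02%, 2.07% and 2.17%, and 1.38% to 2.99%. edgeR, DESeq2 and limma-voom called 0 of these 13 in all 3 comparisons, with 0 at an unadjusted p below 0.05. The ratio of their CPM to that of the nuclear members was 4.67 and 4.63 in untreated cells, 3.43 and 3.42 in LPS Fth1-low cells and 2.89, 4.55 and 3.63 in LPS Fth1-high cells. All 5 LPS libraries were below both untreated ones, and the LPS groups overlapped. The ratio has no test of its own.

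Other genes of the pathway were read against the 12.4% of all genes called higher and 11.9% called lower in LPS Fth1-high against untreated cells. Of the 4 complex II genes, Sdhb, its iron-sulfur subunit, was higher in LPS Fth1-high cells (191 ± 30.4 CPM) than in untreated cells (101 ± 27.9 CPM). The log2 difference was 0.92 ± 0.28 SE (edgeR adjusted p = 0.0372). DESeq2 and limma-voom each called 2 of these 4 genes higher there, and edgeR had 3 at an unadjusted p below 0.05. Of cytochrome c and c1, Cyc1 was higher in the same comparison (0.64 ± 0.20 SE, edgeR adjusted p = 0.0416). Of 23 assembly factors of complexes III and IV tested, edgeR called 3 higher there (Coa5 at 1.12, Sco1 at 0.89 and Cox17 at 0.80). It called 1 lower (Cox20 at -0.68). DESeq2 called 2 higher and 0 lower, and limma-voom 5 higher and 2 lower. Sco1 and Cox17 deliver copper to complex IV. Of 6 nucleotide and phosphate carriers, Vdac1, the main pore of the outer membrane, was higher against untreated cells (1.16 ± 0.21 SE, adjusted p = 0.00325) and narrowly against LPS Fth1-low cells (0.81 ± 0.21 SE, adjusted p = 0.0499, not called by limma-voom), and Vdac2 against untreated cells (0.82). Of 9 genes of uncoupling and alternative electron entry, Gpd2, the glycerol-3-phosphate dehydrogenase that feeds electrons past complex I, was higher against untreated cells (0.89 ± 0.24 SE, adjusted p = 0.0231). Of 8 further complex I assembly factors and 5 ATP synthase assembly and inhibitor genes edgeR and DESeq2 called 0 in each comparison. At an unadjusted p below 0.05, edgeR had 1 and 2 of them higher against untreated cells, and limma-voom called 1 of the former.

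Of the 12 regulators of mitochondrial genes tested, 2 were called higher and 1 lower in LPS Fth1-high against untreated cells, beside shares of 12.4% and 11.9% over all genes. Ppargc1b, a coactivator of respiratory genes, was at 1.71 and 2.33 CPM in untreated and 5.02 and 11.8 CPM in LPS Fth1-low libraries. In LPS Fth1-high libraries it was at 21.2, 20.1 and 17.7 CPM, with no overlap between the groups. The LPS Fth1-low value of 5.02 CPM rests on 3 counts in the shallow library. Ppargc1b was called higher in LPS Fth1-low (log2 difference 2.33 ± 0.37 SE, edgeR adjusted p = 0.00752) and in LPS Fth1-high cells (3.30 ± 0.34 SE, adjusted p = 1.26e-04) against untreated ones. Perm1, a regulator known from muscle, was higher in LPS Fth1-high than in untreated cells (2.90 ± 0.53 SE, adjusted p = 0.00363), and Nrf1 was lower (-0.71 ± 0.20 SE, adjusted p = 0.0291), at 27.96 ± 0.722 (SD, n = 3) against 45.7 ± 5.35 CPM (n = 2). Ppargc1a, the better known coactivator, had 4 counts in untreated replicate 1 and 0 elsewhere. Between the LPS groups edgeR and DESeq2 called 0 of the 12 regulators tested, 2 were higher at an unadjusted p below 0.05, and limma-voom called 1.

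Levels within a complex differed widely although its subunits assemble in fixed ratios. Per kilobase of the principal transcript, the highest complex I gene (Ndufb8, 139 CPM per kb) was 64.0-fold above the lowest (Ndufab1, 2.17), and the span was 4.52-fold in complex III and 23.8-fold in the ATP synthase. Several of these lowest subunits have near-identical copies elsewhere in the genome, defined as at least 98% identity over at least 100 nt, whose reads a counter may drop or split. Among the members tested and matched to GENCODE, other than the assembly factors, Cox4i2, Cox6b2 and Cox7a1, the 15 with such a copy had a median of 22.1 CPM per kb and the 60 without had 80.9. The 3 processed pseudogene rows of complex I are among these, Ndufb4c with a copy and Ndufa11b and Ndufs6b without. Ndufab1, Ndufb4, Ndufa12, Ndufs5, Atp5g1 and Atp5g2 have copies, and their levels are uncertain for that reason. The Ndufab1 value also rests on a principal transcript of 3479 nt, against a member median of 729 nt. The 64.0-fold span therefore depends on that choice of transcript.

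**Figure D4:**
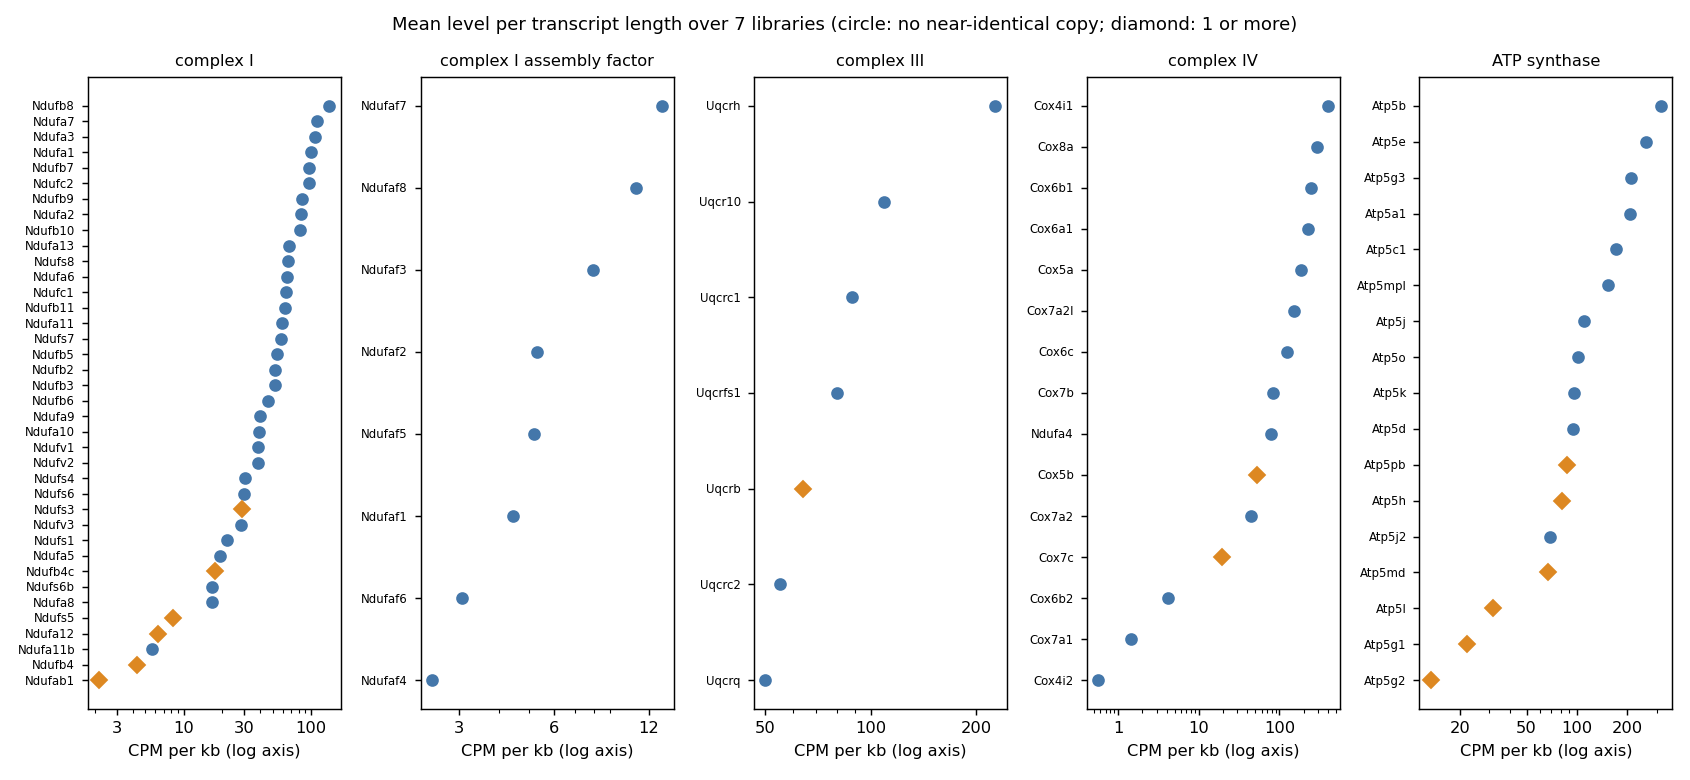
Mean CPM per kilobase of transcript over 7 libraries (log axis) of the members tested with a known transcript, by complex and without 1 complex I gene that is not reported by name, with circles for genes without and diamonds for genes with near-identical copies in the genome. Diamonds make up most of the low end of complex I and of the ATP synthase, down to 2.17 (Ndufab1) and 13.4 (Atp5g2).

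Libraries of the same group differed among themselves by transcript length. Between LPS Fth1-low replicates 1 and 2, the log2 ratio of the members fell with transcript length (Spearman's rho -0.502 over 86 members, 0.0715 over 13390 genes). Of the 43 members shorter than the median of 737 nt, 34 were higher in replicate 1 (median 0.56), and of the 43 longer ones 17 were (median -0.19). The untreated pair gave -0.280 (-0.344 over all genes) and LPS Fth1-high replicates 1 and 3 gave 0.508 (0.398 over all genes), and the points of a pair share the same libraries and their depth. In LPS Fth1-low against untreated cells the members' differences also fell with length (-0.399), while over 13390 genes the value was 0.000794. The medians were 0.47 for short and 0.15 for long members. The part of length in the members' position above 0 was not tested.

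**Figure D5:**
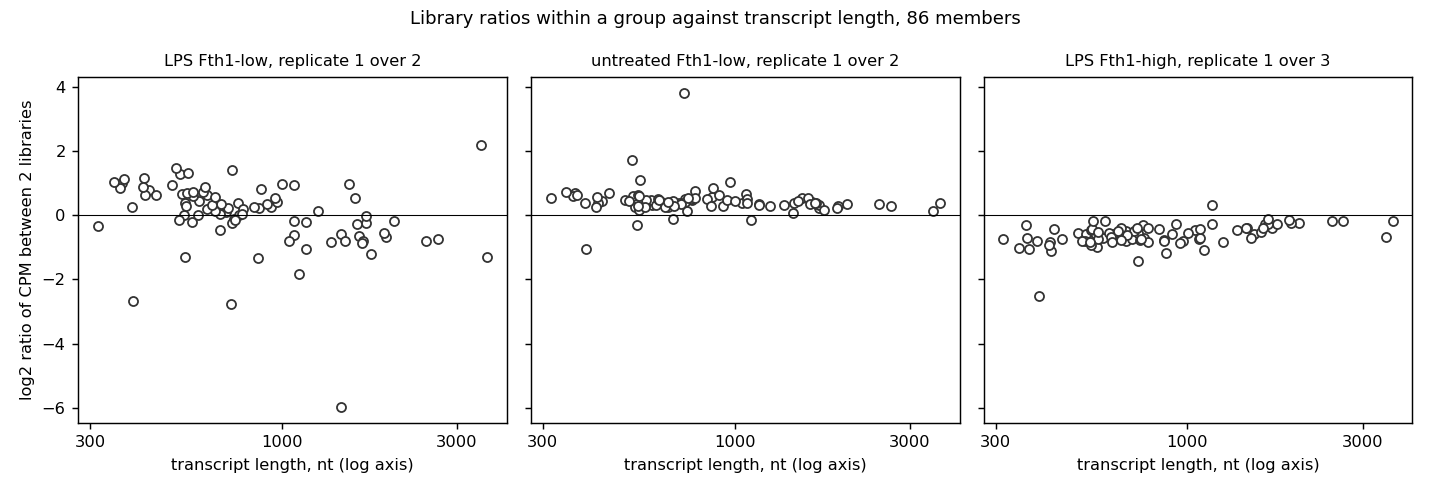
Log2 ratio of CPM between 2 libraries of a group against transcript length (log axis) for 86 members, in 3 pairs of libraries. In LPS Fth1-low the points fall from above 0 at short to below 0 at long transcripts, while in LPS Fth1-high replicate 1 over 3 nearly all lie below 0.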

How the data were processed

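RNA of sorted lung cells was sequenced in 7 libraries. The deposited table holds raw read counts per gene, 1 column per library. Per the submitters' processing notes, DRAGEN, DESeq2 and the mm10 build were used. The sources used here do not give the program that counted the reads, its version or the strand it counted. No column of per-sample values was left unused.

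Counts were tested with edgeR 4.0.16 in R 4.3.3 (TMM scaling, filterByExpr, 1 model of the 3 groups with a robust quasi-likelihood F test). This left 13665 of 26130 genes, and Benjamini-Hochberg adjusted p-values below 0.05 over all of them were called. A standard error is the log2 difference divided by the square root of F. CPM are counts scaled to a library's total times its TMM factor, and shares in percent of counts use the total alone. Alternatives were other scalings, no filter, DESeq2 1.42.0, limma 3.58.1 (voom, with and without sample quality weights), only the groups compared, a replicate block, leaving out mitochondrial and ribosomal genes, thinning to 637787 counts and leaving out each library. The scripts were tested on simulated counts of 13665 genes, of which 200 were changed in each comparison. At a log2 change of 1, 13.3% to 20.8% of changed genes were recovered over the 3 comparisons. At a log2 change of 2, 61.2% to 69.4% were. Of the calls, 7.37% to 12.1% were genes simulated without a change. These rates can depend on how many genes change, which is not known for the real libraries. A gene that was not called is therefore not shown to be unchanged, and some calls may be of unchanged genes.

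Transcript lengths, overlaps and copies came from GENCODE M21, which matched 92 of the 93 members. Of these, 30 share exon sequence with a gene on the opposite strand. Members were named by a rule: the called genes (at most 5 per complex and comparison), the highest and lowest log2 difference of each complex, the most abundant where none was called, and the isoform sets. Ndufs1, Ndufs8, Ndufv1, Ndufa11, Cox5a, Uqcrc2 and Uqcrq, the genes of the levels per length, and AA467197 are not covered by the rule and were picked with their values in view. The members and the gene lists were chosen with earlier results of these data known. Values of 1 complex I member are not reported here by name, and it stays in the counts and sums.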

Additional observations from a re-analysis of the deposited data

How the results depend on the processing

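Counts of called members moved as follows. Between the LPS groups, leaving out 1 library gave 0 to 1 members higher (1 without LPS Fth1-low replicate 2) and 1 to 2 lower (1 without LPS Fth1-low replicate 2), against 0 and 3. In LPS Fth1-low against untreated cells thinning gave 1 higher, Cox7b. In LPS Fth1-high against untreated cells 6 were higher, and the count was 20 with sample quality weights, 3 thinned and 0 to 13 with 1 library left out. The 4 lower went to 2 to 4, with 2 without untreated replicate 1. With a replicate block the 6 became 1, and the same numbers do not pair the libraries in the labels (correlations of same-numbered libraries -0.037 to 0.290).

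With 1 library left out, 44 of the 114 log2 differences of named genes took both signs. In 7 the reported value was larger than its standard error. Between the LPS groups it ran from -1.383 to 0.031 for Atp5g2, from -0.80 to 0.161 for Cox7b and from -0.789 to 0.072 for Cox6b1, each above 0 without LPS Fth1-low replicate 1, and from -0.587 to 0.058 for Cox7a2l, above 0 without LPS Fth1-low replicate 2. In LPS Fth1-low against untreated cells it ran from -0.908 to 0.014 for Uqcrc1, above 0 without LPS Fth1-low replicate 1, and from -0.255 to 0.586 for Ndufs3, below 0 without LPS Fth1-low replicate 2. In LPS Fth1-high against untreated cells it ran from -2.65 to 4.978 for Cox4i2, above 0 without untreated replicate 1. Thinned, Ndufv3 was at -0.087 between the LPS groups. None of these was called. The median of the assembly factors was -0.29 between the LPS groups and -0.35 in LPS Fth1-high against untreated cells when thinned, which left fewer genes tested. With 1 library left out it reached 1.11, -0.81 and 0.33 to 0.68 in the 3 comparisons. Other causes were not tested. Other scalings moved the median of all genes by at most 0.02. The shallow library, with 22 tested members under 10 counts, limits every value of LPS Fth1-low cells.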
